A study of Mus musculus with 9 samples.

Results

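Ribosome biogenesis and nucleolar genes were taken as the genes whose symbol on the arrays, older synonyms counted, begins with Nop, Nol, Utp, Polr1, Rrp, Exosc, Imp3, Imp4, Wdr43, Bop1, Pes1, Gnl, Nip7, Ebna1bp2, Nhp2 or Gar1, together with Fbl, Ncl, Npm1, Dkc1, Rrs1, Mybbp1a and Tcof1. The arrays carried 55 such genes on 80 clones, among 7612 named genes and 15294 clones in all, and 36 of the 55 were found through an older symbol. The brightest clone stood for a gene, which involved a choice for 20 genes. Pairs of cell states, labelled in Cy3 and Cy5, were hybridized to 9 spotted mouse cDNA arrays. G0 MB are C2C12 myoblasts, a mouse muscle line, brought to a reversible arrest by 48 h of suspension in semi-solid medium. They were set against proliferating MB in growth medium (3 arrays), against MT, the myotubes that C2C12 cells form in differentiation medium (2 arrays), and against G0 FB, fibroblasts arrested in suspension (2 arrays). MT were also set against MB (2 arrays). All myogenic states thus come from 1 line. The fibroblasts are NIH 3T3 by the labels and C3H10T1/2 by the methods. The treatment field speaks of replated cells throughout, against the titles, which were followed, and on 1 fibroblast array NIH 3T3 opens the source name given for the myoblasts.

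Ribosomes are assembled in the nucleolus. RNA polymerase I transcribes the long precursor of the ribosomal RNAs, box C/D and box H/ACA particles modify it, and the small subunit processome, the large subunit assembly factors and the RNA exosome fold, cut and trim it while ribosomal proteins join. Growing cells devote much of their transcription to this work, and resting cells are known to make fewer ribosomes. The comparisons ask whether the messenger RNAs of this machinery differ between reversibly arrested, cycling and differentiated cells.

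The members lay lower in G0 MB than in MB on balance, with the lowest values among RNA polymerase I, the modifying particles, the nucleolar scaffolds and large subunit assembly. Of the 55 genes, 42 could be tested in G0 MB over MB, which needed values on at least 2 arrays and 2 residual degrees of freedom, and 30 of the 42 had a mean log2 ratio below 0. Genes were counted when their mean passed 1.6-fold (log2 0.67) and every array with a value lay on the same side of 0. By these limits 20 of the 42 (47.6%) were lower in G0 MB, where the share over all 6903 clones tested was 20.7%. By the same limits 1 member (2.38%), Nol9, was higher, where the share over all clones was 14.0%. The median log2 ratio was -0.74 over the 42 members and -0.08 over all clones. A spot was kept when either channel lay above the detection limit of its array, so some members entered through MB alone. Among the 20 lower genes, G0 MB was at or under its limit in both duplicate spots on every array for 4, on some arrays for 11 and on none for 5. Where G0 MB was under its limit, the size of a ratio depends on that dim channel and is not exact. With both channels required above their limits, 24 members kept values on 2 or more arrays and 8 of them (33.3%) were lower, against 15.3% of all clones, with a median of -0.39 over these members and 0.11 over all clones.

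No member was called by limma, which called a clone past 1.6-fold at an adjusted p under 0.04 and called 27 of the 6903 clones (0.391%). At an unadjusted p under 0.05, 16 members were lower and 0 higher, where 12.8% of all clones were lower and 9.72% higher. The fit takes the spread of a clone from all 9 arrays, and the labelled dyes of the other comparisons are in doubt, as described with MT over MB. With those arrays read in the order of their titles the ratios of G0 MB over MB were the same, 204 clones (2.96%) were called, and 1 member, Mybbp1a, was among them.

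The 3 arrays of G0 MB over MB did not show the members alike. Their median log2 ratio was -1.02 on replicate 1 and -0.89 on replicate 2, where the medians of all clones were -0.20 and -0.14. On replicate 3 it was -0.17, close to the -0.13 of all clones. The share of members with a value that were lower past 1.6-fold was 62.2% and 64.0% on replicates 1 and 2, against 37.1% and 29.3% of all clones, and 24.3% on replicate 3, against 27.2% of all clones. Replicate 3 had r = 0.202 and 0.204 with the other arrays over clones, where replicates 1 and 2 had r = 0.680 with each other. It alone of the 3 held 15247 clones, as the arrays of the other comparisons did, where replicates 1 and 2 held 15294. The record places all 3 on the same platform. A difference of array layout and one of replicate cannot be told apart. Members lower past 1.6-fold in the mean, with every remaining array on that side, numbered 10 of 35 without replicate 1 (28.6%, against 18.3% of all clones). They numbered 13 of 32 without replicate 2 (40.6%, against 20.0%) and 28 of 44 without replicate 3 (63.6%, against 33.2%). Without replicate 3, limma called 7 of 33 members, all lower in G0 MB, at adjusted p between 0.0209 and 0.0377 (Mybbp1a, Nolc1, Nol12, Tcof1, Nop2, Polr1a and Pes1), where it called 567 of 5755 clones (9.85%). Leaving out replicate 1 or replicate 2 in its place gave no called member, so these calls depend on which array is left out.

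**Figure D1:**
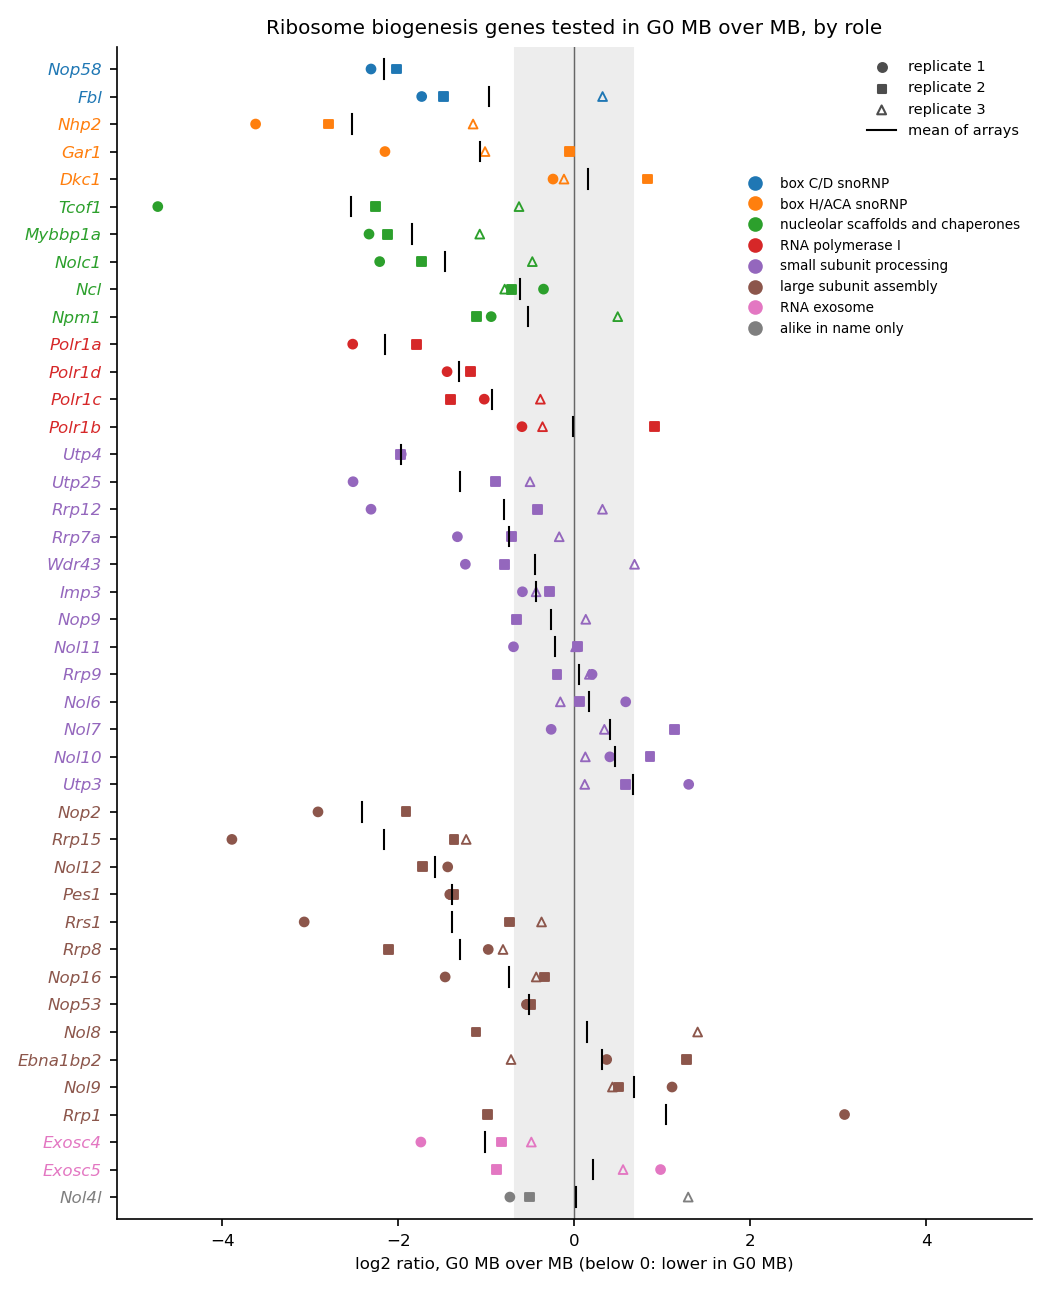
Log2 ratio of G0 MB over MB on each array for the 42 members tested, grouped and coloured by role, with a symbol for each replicate, the mean as a black bar and the span within 1.6-fold in grey. Most values of replicates 1 and 2 lie left of 0, and those of replicate 3 lie nearer to 0, with Fbl, Npm1, Rrp12 and Wdr43 among those on the other side of it.

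The promoters of several low members hold the E-box, the DNA element bound by Myc and related factors. RefSeq promoter windows of 300 bases around gene starts (build GRCm38.p6) were matched for 44 of the 55 members, and CACGTG, which reads the same on both strands, stood in at least 1 window of 11 of them (25.0%). It stood in 8.09% of all 27025 genes with a window and in 12.7% of the 5834 of those on the arrays. Among members with a window, 17 were lower in G0 MB past 1.6-fold in the mean with every array on that side. It was found for 6 of these 17 (35.3%) and for 3 of the 17 others tested (17.6%). These counts describe letters in the sequence, and binding was not measured. The surroundings of the E-box are shown for 4 low members that hold it, 5′ to 3′ on the strand of the gene, with the E-box in capitals and its first base counted from the start of the gene as 0.
Mybbp1a (chr11:72441327-72441376, plus strand, E-box from base 40): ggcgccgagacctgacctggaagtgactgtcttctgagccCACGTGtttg
Nop2 (chr6:125131783-125131868, plus strand, E-box from base -60): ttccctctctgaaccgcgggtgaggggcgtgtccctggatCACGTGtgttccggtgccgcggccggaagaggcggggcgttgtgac
Utp4 (chr8:106893615-106893689, plus strand, E-box from base 15): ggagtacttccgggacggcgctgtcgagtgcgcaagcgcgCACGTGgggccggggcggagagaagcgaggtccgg
Pes1 (chr11:3963937-3964022, plus strand, E-box from base 2): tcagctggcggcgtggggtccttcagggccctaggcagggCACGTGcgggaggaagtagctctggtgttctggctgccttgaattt
In Mybbp1a, Utp4 and Pes1 the element lay just inside the transcribed part, and in Nop2 before the start. Nol11 and Exosc5, with mean log2 ratios of -0.21 and 0.22, hold it too.

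RNA polymerase I makes the ribosomal RNA precursor. Polr1a, its largest subunit, had intensities of 1466 and 2610 in G0 MB on replicates 1 and 2, against 7534.5 and 8943.5 in MB, and no value on replicate 3. G0 MB was under its limit on both arrays, which sets the level as at least 1.46-fold lower (fitted log2 ratio -2.16, limma adjusted p = 0.0956). Polr1d and Polr1c are subunits shared with RNA polymerase III. Polr1d was at log2 ratios of -1.45 and -1.18 and Polr1c at -1.02, -1.40 and -0.39, all lower in G0 MB. For Polr1c, G0 MB was under its limit on replicate 3. Polr1b, the second largest subunit, was at -0.59, 0.91 and -0.36, so its arrays did not share a side. Polr1e was above the limit on no array.

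The box C/D particle methylates ribosomal RNA, and the box H/ACA particle turns uridines in it into pseudouridine. Fbl, the fibrillarin methyltransferase of box C/D, had intensities of 24402, 54100 and 12799 in G0 MB, against 81148, 151188 and 10244.5 in MB. G0 MB was thus lower on replicates 1 and 2 and higher on replicate 3 (mean log2 ratio -0.96, standard error 0.46, limma adjusted p = 0.254). Nop58, a core protein of the same particle, was at -2.31 and -2.02 with G0 MB under its limit on 1 array (mean -2.17, standard error 0.64), and its dimmer clone was at -1.54 and -1.89 on the same arrays. Nhp2, a core protein of box H/ACA, had intensities of 3822.5, 11714.5 and 2457 in G0 MB, against 46998.5, 79341 and 5450.5 in MB. Every array was lower in G0 MB, at log2 ratios of -3.62, -2.79 and -1.15 (mean -2.52, standard error 0.55, limma adjusted p = 0.103), with G0 MB under its limit on 2 of them. Its dimmer clone was also below 0 on every array and less so, at -0.06, -2.70 and -0.59 (mean -1.12, standard error 0.50, limma adjusted p = 0.229). Gar1, of the same particle, was at -2.15, -0.06 and -1.01, with a standard error of 1.01 that the fit takes from all 9 arrays. Its G0 MB intensity was under the limit on replicates 1 and 3. Dkc1, the pseudouridine synthase itself, was at -0.24, 0.83 and -0.12 on its brightest clone, while a dimmer clone gave -1.23 and -1.74 on replicates 1 and 2.

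All 5 nucleolar scaffolds and chaperones had means below 0. Of them 3 were lower past 1.6-fold in the mean with every array on that side, where 20.7% of all clones were. Mybbp1a, a Myb-binding protein that takes part in ribosomal RNA synthesis and processing, had intensities of 6660.5, 13969.5 and 3675 in G0 MB, against 33538, 60871 and 7650.5 in MB. Its log2 ratios of -2.33, -2.12 and -1.07 gave a mean of -1.84 (standard error 0.36, limma adjusted p = 0.0593 by the labels, 0.0286 in title order). On replicate 3 its G0 MB spots were under the limit, and on replicate 1 their mean was under it, with 1 of the duplicates above. Tcof1, the treacle protein that serves RNA polymerase I at the ribosomal genes, had 886, 6251 and 3084.5 in G0 MB, against 23545, 30085 and 4765 in MB. Its log2 ratios of -4.73, -2.26 and -0.63 were on the same side and far apart, with G0 MB under its limit on replicates 1 and 3 (mean -2.54, standard error 0.69, limma adjusted p = 0.118). Nolc1, a scaffold for snoRNA particles, had both channels above the limit on every array, with 10116, 26637 and 22223.5 in G0 MB, against 46683.5, 88546 and 30512.5 in MB. Its log2 ratios were -2.21, -1.73 and -0.48 (mean -1.47, standard error 0.38, limma adjusted p = 0.0986). With both channels required above the limit, limma called 3 of 18 members, Mybbp1a (adjusted p = 0.0148), Nol12 (0.0223) and Nolc1 (0.0297), where it called 6.78% of all clones. Ncl, or nucleolin, was at -0.35, -0.71 and -0.79, a mean of -0.62 that stayed within 1.6-fold on its brightest clone. Its dimmer clones were past it, one at -2.40 and -1.10 on replicates 1 and 2 (mean -1.75) and one at -1.01, -0.19 and -0.98 (mean -0.73). Npm1, or nucleophosmin, a histone and ribosome chaperone, was at -0.94, -1.11 and 0.49 and changed side on replicate 3, while its other clone was at -0.33, -1.78 and -0.02 (mean -0.71).

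**Figure D2:**
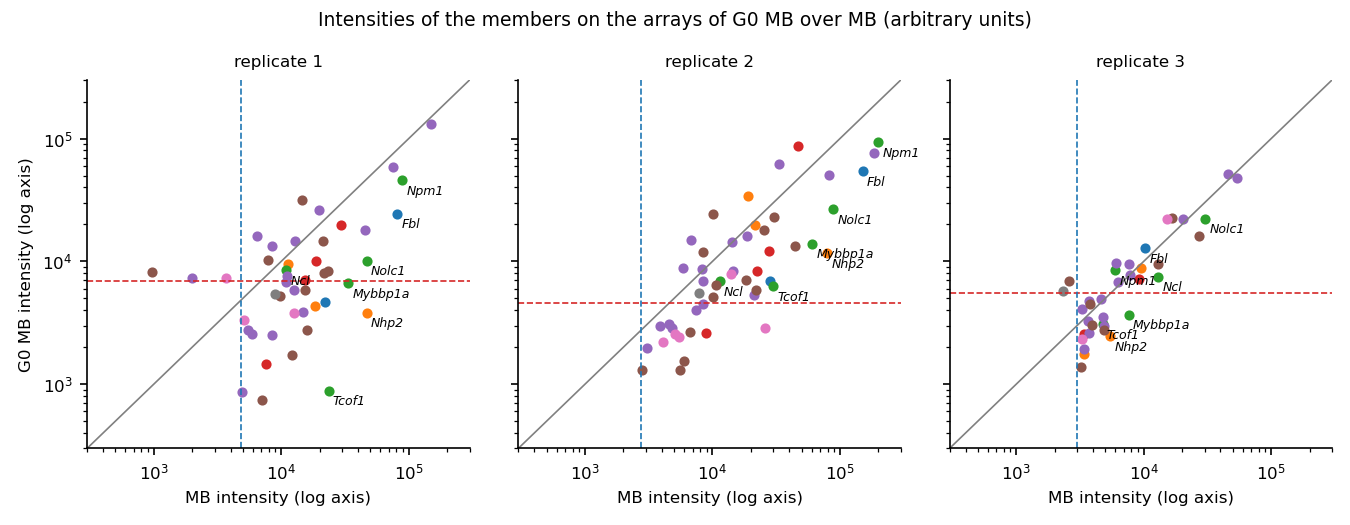
Intensity of each member with a value in G0 MB (vertical) against MB (horizontal), in arbitrary units on log axes, with a panel for each array of G0 MB over MB and points coloured by role. The diagonal marks equal intensities and the dashed lines the detection limits. Most points of replicates 1 and 2 lie under the diagonal, and those of replicate 3 lie nearer to it.

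Large subunit assembly had 12 members tested. Past 1.6-fold in the mean with every array on that side, 7 were lower in G0 MB and 1 was higher, where 20.7% and 14.0% of all clones were. Nop2, a methyltransferase of the large subunit RNA, had 2739 and 5826.5 in G0 MB, against 15868.5 and 21926 in MB, and log2 ratios of -2.91 and -1.91 (mean -2.41, standard error 0.47, limma adjusted p = 0.0911). On replicate 1 its G0 MB intensity was under the limit. Nol12, a nucleolar RNA-binding protein, had 8040 and 13361.5 in G0 MB, against 21790 and 44046.5 in MB, and log2 ratios of -1.44 and -1.72 (limma adjusted p = 0.0914). Pes1, part of the complex that matures the large subunit RNA, was at -1.41 and -1.37 on replicates 1 and 2, with G0 MB under its limit on replicate 1. Its dimmer clone had values on all 3 arrays, -1.91, -1.44 and -1.26, on the same side and of similar size (mean -1.53, standard error 0.28, limma adjusted p = 0.0568). Rrp15 was at -3.89, -1.37 and -1.23 with G0 MB under the limit on every array, where the limit sets no fold. Rrs1, which helps to bring the 5S particle to the large subunit, was at -3.07, -0.74 and -0.37, with G0 MB under its limit on replicates 1 and 3. Rrp8, a methyltransferase of the large subunit RNA, was at -0.98, -2.11 and -0.81, which the limit sets as at least 1.14-fold lower, and Nop16 was at -1.47, -0.34 and -0.43. Nol9, a kinase of ribosomal RNA ends, was the higher one, at 1.11, 0.50 and 0.43 (mean 0.68, limma adjusted p = 0.401). Rrp1 was at 3.07 and -0.99, Nol8 at -1.12 and 1.40 and Ebna1bp2 at 0.37, 1.28 and -0.72, with arrays on opposite sides, and Nop53 was at -0.54 and -0.50. The 3.07 of Rrp1 rests on an MB intensity of 967, under the limit of 4868.

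The small subunit processome, which assembles on the precursor as it is made, stood nearer to 0. Of 13 members tested, 3 were lower in G0 MB past 1.6-fold in the mean with every array on that side, and 0 higher. The shares over all clones were 20.7% and 14.0%. The median of these members was -0.27. Utp4, a processome protein, had 3867.5 and 5340 in G0 MB, against 14929.5 and 21016 in MB, a log2 ratio of -1.97 on both arrays (standard error 0.48, limma adjusted p = 0.122). On replicate 1 its G0 MB intensity was under the limit. Its dimmer clone was at -0.98, -2.26 and -2.96. Utp25 was at -2.51, -0.89 and -0.50 with G0 MB under the limit on every array, where the limit sets no fold, and Rrp7a was at -1.33, -0.71 and -0.17. On the other side of 0 lay Utp3 (1.30, 0.58 and 0.12) and Nol10 (0.40, 0.86 and 0.13), both within 1.6-fold in the mean. Rrp12 (-2.31, -0.41 and 0.32) and Wdr43 (-1.24, -0.80 and 0.68) changed side on replicate 3. Imp3, Nop9, Nol11, Rrp9, Nol6 and Nol7 had means between -0.43 and 0.40. Of the RNA exosome, which trims RNA from its 3′ end, Exosc4 was lower on every array, at -1.74, -0.83 and -0.49 (mean -1.02, standard error 0.35, limma adjusted p = 0.153), and Exosc5 was at 0.98, -0.89 and 0.55. For Exosc4, G0 MB was under its limit on replicates 1 and 3.

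The dimmer clones of these genes could be read beside the brightest. Of 25 such clones 11, from 10 genes, were tested in G0 MB over MB. All 11 had a mean below 0, and 10 had a mean past 1.6-fold with every array on that side. Of all 6903 clones tested, 3702 had a mean below 0 and 20.7% were lower past 1.6-fold by the same limits. A spot of a dimmer clone also needed only 1 channel above the limit, so some may have entered through MB alone. They were hybridized with the same RNA and are no further replicates. For Ebna1bp2, a large subunit assembly factor, the dimmer clone had a mean of -1.33 and the brightest 0.31. For Rrp9, which binds the U3 snoRNA, these were -1.30 and 0.06, and for Nol7 -0.78 and 0.40. No direction is given for these 3 genes.

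The remaining 13 of the 55 genes had no test in G0 MB over MB. Nol4, Polr1e and Rrp1b were above the limit on no array of the series. Exosc3, Nop14, Utp11, Utp15 and Utp18 had 2 values each, all below 0, and fell short of the 2 residual degrees of freedom required. Exosc1, Exosc8 and Utp23 had 1 value each, at -1.17, -3.18 and -0.69. Among these genes with 1 or 2 values below 0, all but Utp11 had a mean G0 MB intensity under its limit on each array used. Those genes were kept through MB, which favours a value below 0. Imp4 was at 1.87 and 0.36 and Nip7 at -1.97 and 0.24. The 1.87 of Imp4 rests on an MB intensity of 1985, under the limit of 4868, and the -1.97 of Nip7 on a G0 MB intensity of 1531, under 4580. Nol4 and Nol4l fall under the rule by name and are not known for a role in making ribosomes, and Nol4l was at -0.73, -0.51 and 1.29.

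Genes of the pathway outside the rule lay on the same side on balance. Of 93 further ribosome biogenesis genes 69 were on the arrays and 40 were tested in G0 MB over MB. Past 1.6-fold in the mean with every array on that side, 17 were lower and 3 higher. Their median log2 ratio was -0.42, with none called by limma (12 lower and 2 higher at an unadjusted p under 0.05). Over all clones the shares past 1.6-fold were 20.7% and 14.0%, as given above, and those at that p were 12.8% and 9.72%. Among the lower were Pno1, a small subunit assembly factor (-1.88), Nat10, an acetyltransferase of ribosomal RNA (-1.65), Eif6, which keeps the subunits apart (-1.58), and Ubtf, a transcription factor of RNA polymerase I (-1.48). Myc, a transcription factor known to act on many of these genes, was within 1.6-fold at -0.56. The cytosolic ribosomal proteins, 58 tested, had a median of -0.50, with 18 lower and 0 higher by the same limits, beside the same 20.7% and 14.0%.

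Other genes moved with the members. All 6 markers of cycling cells had means below 0 in G0 MB over MB, with a median of -2.26. Of them 5 were past 1.6-fold in the mean with every array on that side, where 20.7% of all clones were. Replication genes, 7 tested, had a median of -2.31. Fibroblast and matrix markers, 6 tested of 7 on the arrays, were all above 0 with a median of 1.20. The arrays held 2 of 16 sarcomere markers, Mylpf at 0.48 and Tpm2 at -0.24, and none of 4 myoblast markers, so the myoblast label could not be checked on these. The part of such genes in the members' ratios was not tested. Fewer cells of a type and less RNA per cell cannot be told apart in whole cultures.

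In MT over MB the members lay near 0 in their median. Both arrays name MT as Cy5, yet their ratios had r = -0.486 over clones, so the labels cannot hold for both if the arrays repeat each other. The methods give a dye reversal within each pair of states, and none is labelled for this pair. Values follow the labelled dyes, and then title order, where the title of an array gives the order of its states in the authors' processed ratios, which turns replicate 1 and gives r = 0.486. Turning replicate 2 in its place would give the same r with every sign exchanged. The 2 sarcomere markers, genes of the contractile apparatus that myotubes build, lay higher in MT than in MB in title order, Tpm2 at 2.71 (standard error 0.41, limma adjusted p = 0.0279) and Mylpf at 8.69 (limma adjusted p = 0.0519), with 1 channel under its limit on 1 array for Mylpf. By the labels they were at -0.71 and 4.01. The cycling markers, 5 tested, had a median of -1.06 in title order and -0.11 by the labels, with Ccna2 at 1.18 in title order. Over the 25 members tested the median log2 ratio was 0.11 by the labels, beside 0.09 over all clones, and 0.06 in title order, beside -0.05. By the labels 1 member was lower past 1.6-fold in the mean with both arrays on that side and 0 were higher, where 3.48% and 3.35% of all 5373 clones were. In title order 2 were lower and 1 higher, where 14.0% and 9.98% of all clones were. Limma called no member under either reading, with none at an unadjusted p under 0.05 by the labels, and 1 lower and 1 higher in title order (6.96% and 5.03% of all clones).

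Several members that were low in G0 MB stood near 0 in MT. Nolc1 was at 0.04 and 0.30 by the labels, Tcof1 at -0.02 and 0.25, Nol12 at 0.00 and -0.12 and Pes1 at -0.37 and 0.04, and turning replicate 1 leaves all of them within 1.6-fold. Mybbp1a was at 0.50 and 0.00 by the labels, and Exosc4 at -0.23 and 0.36. Npm1 depended on the reading, at 1.37 and -1.51 by the labels and at -1.37 and -1.51 in title order, where its mean was -1.44 (limma adjusted p = 0.215). Nop58 was at 0.39 and -1.91 by the labels, with a mean of -1.15 in title order. Gar1 was at -3.65 and -1.69 by the labels, and its arrays were opposite in title order. Nol9 was at -0.22 and 2.34 by the labels, with a mean of 1.28 in title order (limma adjusted p = 0.358). The other clone of Npm1 was at 1.18 and -1.03 by the labels, with a mean of -1.11 in title order. The dimmer clones of Ncl were at -1.01 and -0.82 and at -0.90 and -0.81 by the labels, past 1.6-fold in the mean, and at 0.093 and 0.046 in the mean in title order. On their brightest clones Ncl was at -0.66 and -0.04, Dkc1 at 0.04 and -0.33 and Polr1b at 0.17 and 0.19 by the labels, within 1.6-fold under either reading. The replication genes, 5 tested, had a median of 0.06 by the labels and -1.70 in title order, and the further ribosome biogenesis genes, 26 tested, 0.15 and 0.14.

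**Figure D3:**
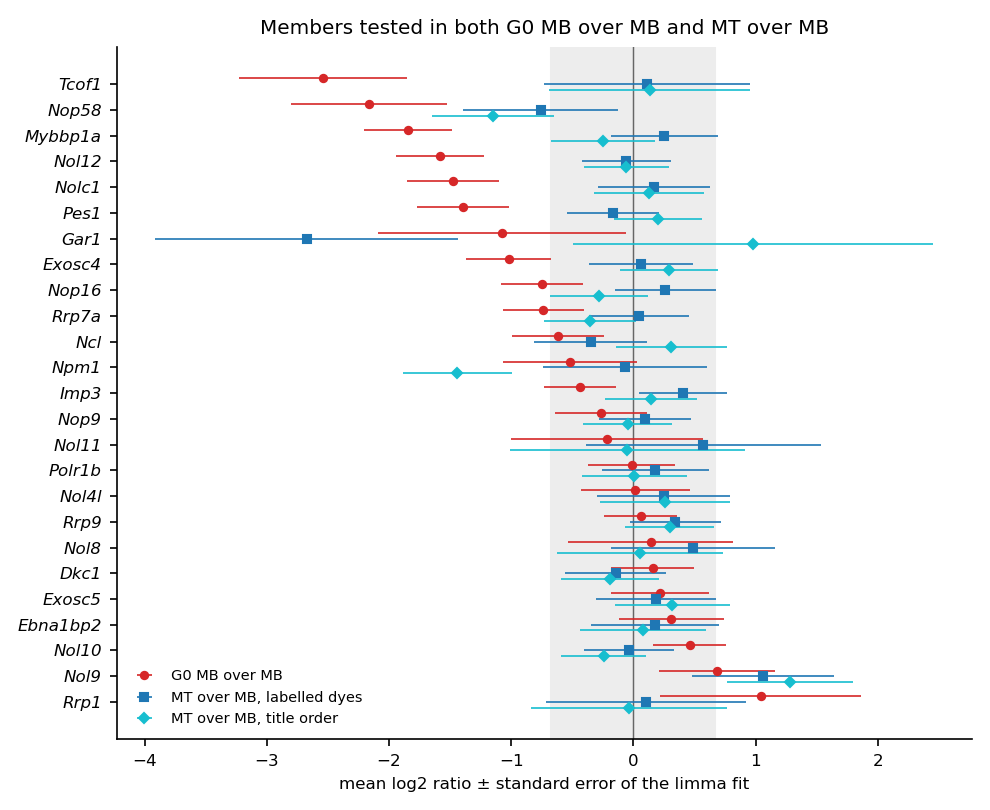
Mean log2 ratio with the standard error of the limma fit for the 25 members tested in both G0 MB over MB and MT over MB, the MT values by the labelled dyes and in title order, with the span within 1.6-fold in grey. The G0 MB means of Tcof1, Mybbp1a, Nol12, Nolc1 and Pes1 lie left of their MT means under both readings.

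The difference between the arrests was tested in the same fit as the ratio of G0 MB to MB less that of MT to MB, which share MB as a state. Limma called no member and no clone under either reading. The members' median difference was -0.38 under both, beside -0.15 over all clones by the labels and 0.03 in title order. Mybbp1a had a difference of -2.09 by the labels (standard error 0.57, limma adjusted p = 0.596) and -1.60 in title order (standard error 0.55, limma adjusted p = 0.29). Nol12 (-1.52 under both), Nolc1 (-1.64 and -1.60) and Tcof1 (-2.65 and -2.67) also had an unadjusted p under 0.05 under both readings. By the labels these 4 were the members under that limit, all lower (4.85% of all clones), and in title order Pes1 (-1.60) and Exosc4 (-1.31) were under it too (6.59%). That G0 MB and MT differ in these genes was therefore not shown after adjustment.

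In G0 MB over MT, 28 members were tested, and title order turns both arrays. By the labels the sarcomere markers lay higher in G0 MB than in MT, Mylpf at 3.61 and Tpm2 at 2.00, and in title order they lay lower by as much, at -3.61 and -2.00. The dyes alone do not settle the direction. The median was 0.03 by the labels, beside -0.07 over all clones, and -0.03 in title order, beside 0.07. Past 1.6-fold in the mean with both arrays on that side, 3 members were lower by the labels (10.6% of all 5134 clones) and 3 were higher (10.8%). Title order exchanges these sides. By the labels Nol8 was at -0.34 and -2.06, Utp3 at -1.31 and -0.73 and Ebna1bp2 at -0.06 and -1.39. G0 MB was under its limit on both arrays for Utp3, which sets it as at least 1.12-fold lower by the labels. For Nol8 and Ebna1bp2 it was at 223 and 433.5 on replicate 2 by the labels, under the limit of 1331. Mybbp1a was at 1.42 and 0.51 by the labels, Exosc4 at 1.11 and 0.47 and Pes1 at 1.03 and 0.45. These 3 were lower in G0 MB than in MB, and they lay lower in G0 MB than in MT only if title order holds. Polr1b (-0.37 and -0.97), Polr1c (-0.89 and -0.24) and Npm1 (-0.52 and -0.68) were within 1.6-fold in the mean by the labels. Fbl, Dkc1, Nolc1, Ncl, Polr1d and Gar1 had arrays on opposite sides. Nol12 was at 0.36 and 0.34 by the labels, within 1.6-fold under either reading. Tcof1 had a value on replicate 2 only, at -0.33 by the labels, and no test. Limma called no member under either reading, and Nol11 alone had an unadjusted p under 0.05, with arrays on opposite sides. The arrays had r = 0.0204 with each other over clones.

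In G0 MB over G0 FB, 33 members were tested, and title order again turns both arrays. Tpm2 lay lower in G0 MB by the labels (-2.64) and higher in title order (2.64). The median was -0.02 by the labels, beside 0.01 over all clones, and 0.02 in title order, beside -0.01. Past 1.6-fold in the mean with both arrays on that side, 1 member was lower by the labels (6.20% of all 6211 clones) and 3 were higher (10.6%), with the sides exchanged in title order. Polr1a was at -1.28 and -0.85 by the labels (mean -1.07, standard error 0.44). Utp3 was at 2.59 and 0.05, Npm1 at 0.66 and 1.19 and Utp4 at 0.14 and 1.33 by the labels, with G0 FB under the limit on both arrays for Utp4. Dkc1 (0.75 and 0.44), Polr1b (0.43 and 0.54) and Polr1c (0.37 and 0.25) were within 1.6-fold in the mean by the labels, as were Mybbp1a (0.30 and 0.16) and Nolc1 (-0.12 and -0.03). Tcof1, Fbl, Ncl, Polr1d and Gar1 had arrays on opposite sides. Limma called no member under either reading. At an unadjusted p under 0.05 there was none by the labels, and Polr1a in title order.

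**Figure D4:**
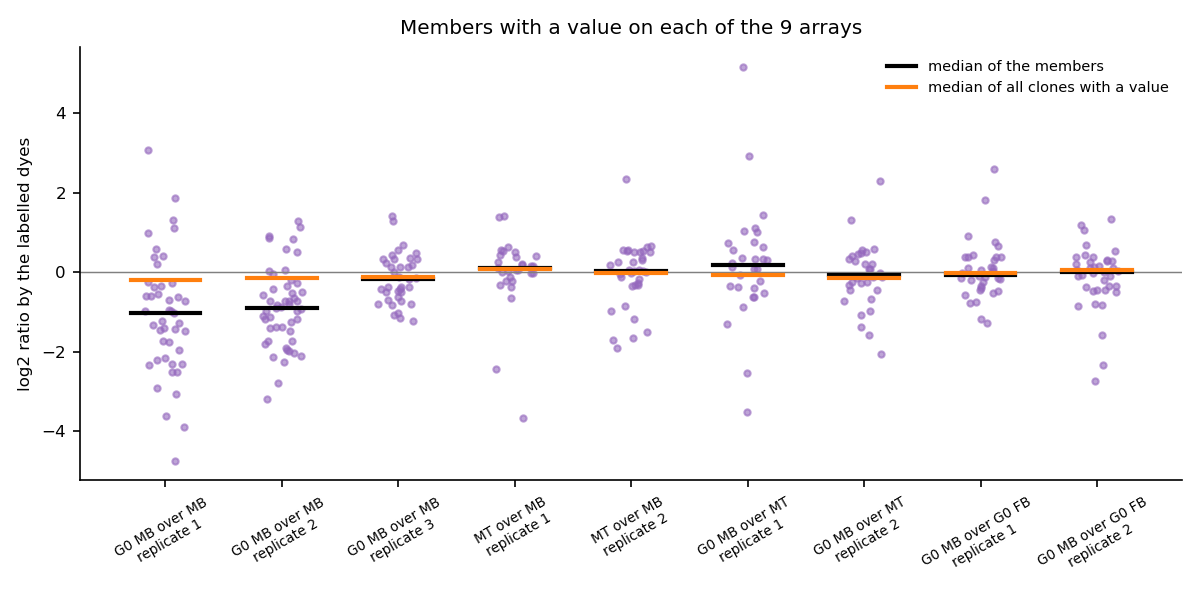
Log2 ratio by the labelled dyes of every member with a value on each of the 9 arrays, with the median of the members and that of all clones with a value. The members' median was -1.02 and -0.89 on replicates 1 and 2 of G0 MB over MB, and between -0.17 and 0.17 on the other 7 arrays.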

How the data were processed

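RNA was measured on 9 arrays with most clones spotted in duplicate. The authors quantified each spot's Cy3 and Cy5 intensity with ArrayVision, subtracted background and normalized by LOWESS (versions not stated), so the planned correction and loess were not repeated. The deposited log2 columns and the authors' value table hold log2 ratios of these. Spots above the limit in either channel made up 36.4% to 61.1% of each array, and others were left out. Precision is limited by the number of arrays. The methods state that each pair of states had a biological replicate and a dye reversal, but which arrays these are is not labelled, so p-values measure the spread between arrays, part of which may be technical. Ratios were turned by the labelled dyes, duplicates averaged, and a single limma model (3.58.1, R 4.3.3) with a coefficient for each comparison was fitted, with p-values adjusted by Benjamini-Hochberg over all clones tested. It was tested on simulated data. Call limits are those of the methods. A bound puts the limit in place of the dim channel. Named were members called under either reading, the 12 with the largest ratio on one side of 0 in a comparison, and Fbl, Nop58, Dkc1, Gar1, Nhp2, Ncl, Npm1, Nolc1, Tcof1, Mybbp1a and Polr1 subunits. Others were chosen after their values were seen. Nol10 and Nol11 were moved to the small subunit by their known role. Members and lists were chosen with earlier results of these data known. Alternatives covered direction, filter, scaling, model, spots and left-out arrays. Tables and figures used Python 3.11.15, pandas 2.3.3, numpy 2.4.6 and matplotlib 3.10.9.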

Additional observations from a re-analysis of the deposited data

How the results depend on the processing

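Beside the 0 members and 27 clones called by limma in G0 MB over MB, turning the directions to title order or turning the other MT array each gave 1 member and 204 clones. Within a comparison these settings differ at most in the sign of all its arrays, so their equal counts here and below are the same result. Both channels above the limit gave 3 members and 297 clones. Members lower past 1.6-fold in the mean with every array on that side then numbered 8 in place of 20. Treating spots as replicates, which are not independent, gave 22 members and 2938 clones. Clones called numbered 3 with no detection filter, 49 with median centring, 0 with scaled arrays, 3 from the authors' log2 values, 86 with separate fits, 16 with a dye term and 0 with the loop fit. The authors' values were turned to the labelled dyes, here and in the counts and medians below. The replicate block gave 0 clones in G0 MB over MB, in G0 MB over MT and in G0 MB over G0 FB. Between comparisons, the deviations of arrays of the same number had r from -0.43 to 0.03. The -0.43 was that of G0 MB over MT with G0 MB over G0 FB, and its cause was not tested. The main fit did not pair arrays by number, and the replicate block is the setting that does. In MT over MB, against 0, title order and the other array turned gave 33 clones each and spots 163. The member median of 0.11 there was 0.056 in title order, 0.063 with no detection filter and from the value table, -0.056 with the other array turned, -0.020 with a dye term, -0.10 in the loop fit and 0.17 as the mean of all clones of a gene. In G0 MB over MT, against 2, title order and the other array turned gave 19 clones each, both channels 16, spots 843 (4 members), and no filter, centring, scaling, the value table, separate fits, a dye term and the loop fit 0. In G0 MB over G0 FB, against 5, both channels gave 2, no filter and the authors' values 3 each, separate fits 0 and spots 286. The member median of -0.02 there was -0.072 with both channels, no filter, the value table and spots, -0.094 with loess repeated and -0.10 with the replicate block. The difference of the arrests, with 0 called, gave 166 clones with the other array turned and 947 (11 members) with spots. Leaving out 1 array at a time, under either reading, gave 0 to 11 members and 0 to 1097 clones in G0 MB over MB, with medians of -1.02 to -0.29 and 10 to 28 members lower past 1.6-fold. It gave 0 to 52 clones in MT over MB (medians -0.046 to 0.14), 0 to 1 members and 0 to 156 clones in G0 MB over MT (medians -0.16 to 0.16), 1 to 21 clones in G0 MB over G0 FB (medians -0.092 to 0.092) and 0 to 19 for the difference. The mean of Polr1b in G0 MB over MB changed sign with median centring (0.14), a dye term (0.043) and the replicate block (0.029), and ranged from -0.48 to 0.28 when 1 array was left out (0.16 without replicate 3), while that of Dkc1 ranged from -0.18 to 0.36. Causes were not tested. Channels under the limit leave the size of the lowest ratios unknown.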

Other observations

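Some extreme values came from single arrays or clones. Nol11, a processome protein needed for transcription of the precursor, was at 5.16 and -0.03 by the labelled dyes on the arrays of G0 MB over MT. On replicate 1 its MT intensity was 232 by the labels, under the limit of 2627, so the size of that ratio is not exact. Ncl was spotted as 4 clones, and a dimmer one with values on 3 arrays was at -4.45 on replicate 1 of MT over MB and at -6.77 on replicate 2 of G0 MB over G0 FB by the labels, where the brightest clone was at -0.66 and -0.38. Gar1 was at -2.54 and 2.29 in G0 MB over MT and at 1.80 and -2.34 in G0 MB over G0 FB by the labels.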
